A study of Mus musculus with 12 samples.

Results

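The proteasome genes were described here in the hearts of control and mdx mice. Members were all probe sets that the platform annotation paired with 1 gene whose symbol begins with Psma, Psmb, Psmc, Psmd or Psme and a digit, leaving out Psmb8 and Psmb9. The rule found 74 probe sets for 41 genes, of 20380 probe sets and 12393 genes named in this way on the array. A probe set is the group of short probes on an Affymetrix array whose brightness is combined into 1 signal for a transcript. Of the members, 62 probe sets for 39 genes had a mean signal of at least 100 over the 12 arrays and were tested, and Psma8 and Psmc3ip fell below that level. The letters of the rule also took in Psmc3ip and Psme3ip1, which are not proteasome subunits, so 2 of the 41 genes are members by their letters alone. The probe set of Psme2 was paired with 2 genes and was not used.

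Total RNA of heart muscle had been measured on 12 Affymetrix MOE430A arrays, 3 each for control (wild type) and mdx mice at 8 weeks and at 10.5 months. The mdx mouse carries a mutation of the gene for dystrophin, the protein that links the muscle cell's skeleton to its membrane, and is a model of Duchenne muscular dystrophy. Strain, sex, the part of the heart and whether RNA was pooled are not given in the labels. The labels do not say that replicates were separate animals either, so the p-values measure the spread between these arrays.

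The proteasome degrades proteins that carry chains of ubiquitin. Its core is a barrel of outer alpha rings, which gate the entry, and inner beta rings, in which Psmb5, Psmb6 and Psmb7 hold the cutting sites. A regulatory particle caps the barrel: its base holds the 6 ATPases that unfold the substrate (Psmc1 to Psmc6), and its lid removes the ubiquitin chain. In striated muscle this pathway carries much of the turnover of sarcomere proteins, and interferon replaces the cutting subunits by inducible ones such as Psmb8, Psmb9 and Psmb10.

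Proteasome genes are known to be controlled together through short sites before their starts, so the bases upstream of each member's start were searched on both strands. The table of promoters held 32 of the 39 genes that are subunits, assembly chaperones or activators, and the sequences are RefSeq's, build GRCm38.p6. The core of the antioxidant response element (TGACNNNGC), to which the proteasome gene regulators of the NRF family bind, was found in 5 of 32 (15.6%), against 11.5% of 27025 genes. These were Psmb5, Psmb6, Psmc6, Psmd12 and Psmd9. The windows of 3 of them are shown because these genes stand for the cutting subunits and the ATPases, with the motif in capitals and 5′ to 3′ on the gene's strand. They lie at chr14:54618009-54618067 (minus strand), chr11:70525323-70525356 (plus strand) and chr14:45329574-45329630 (plus strand, with the motif read on the opposite strand).
Psmb5: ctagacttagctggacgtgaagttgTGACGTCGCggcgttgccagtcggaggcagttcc
Psmb6: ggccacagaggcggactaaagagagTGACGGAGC
Psmc6: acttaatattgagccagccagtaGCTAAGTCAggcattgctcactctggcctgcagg

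The CCAAT box, bound by NF-Y, was found in 12 of 32 (37.5%), the same share as over all genes (37.5%). Those of Psmb3 and Psmd14 are shown because both genes passed a test below. The Psmb3 windows, at chr11:97703324-97703378 and chr11:97703366-97703420 (plus strand), overlap and hold 1 marked box each. That of Psmd14, at chr2:61711510-61711564 (plus strand), has the box on the opposite strand, where it reads ATTGG.
Psmb3, box farther from the start: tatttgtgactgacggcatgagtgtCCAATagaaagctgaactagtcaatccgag
Psmb3, box nearer to the start: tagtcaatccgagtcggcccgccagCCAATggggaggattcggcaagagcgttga
Psmd14: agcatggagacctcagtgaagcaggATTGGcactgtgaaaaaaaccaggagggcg

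The site TTCNNNGAA, bound by STAT proteins after interferon, was in 0 of the 32 windows and in 8.13% of all genes. A match is a description of letters and not evidence of binding, and the motif counts stood near those of all genes.

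On every array the signals had the same trimmed mean, but their range differed. The brightest 1% of probe sets began at 40770 to 53154 deposited units on 4 arrays and at 27563 to 32810 on the other 8. The 4 arrays of wide range were replicate 2 of the control hearts and replicates 1 and 2 of the mdx hearts at 8 weeks, and replicate 3 of the mdx hearts at 10.5 months. All 9 defining genes of ventricular muscle were above the filter and all 6 of fast skeletal muscle were below it, while the records also carry extraocular muscle as a keyword. Markers of other cells differed between the groups, and none of those of atrial muscle, fibroblasts, macrophages, endothelium or ventricular muscle was called for mdx against control at either age. Summed atrial markers (5 genes) ran from 4409 to 6400 in control and from 11966 to 12964 in mdx hearts at 8 weeks, and from 4987 to 22868 and 11815 to 18220 at 10.5 months. All 5 were above 0 in mdx minus control at 8 weeks and 4 of 5 were below 0 at 10.5 months (median -1.65). Summed fibroblast markers (7 genes) were 15380 to 18396 and 20353 to 23465 at 8 weeks, and 18014 to 18430 and 19923 to 27239 at 10.5 months. Summed macrophage markers (10 genes) were 10904 to 13773 and 13288 to 15254, then 9735 to 13666 and 11745 to 18098, and these overlap at both ages. The 6 endothelial markers lay below 0 at both ages (medians -0.12 and -0.22), and of the 9 ventricular ones 9 lay above 0 at 8 weeks and 7 at 10.5 months (medians 0.33 and 0.23). Summed ventricular markers were 175570 to 344932 and 156130 to 500937 at 8 weeks, and 168349 to 204274 and 196854 to 261539 at 10.5 months, overlapping at both ages. At 8 weeks Myh6 read 19720, 36059 and 22258 in control and 61245, 44294 and 20734 in mdx hearts, with the high values on the arrays of wide range. The part of these in the results below was not tested. In pieces of heart, fewer cells of a type and less RNA per cell cannot be told apart.

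At 8 weeks most proteasome genes read slightly lower in mdx than in control hearts, and none of them was called lower in the fit without a block. With the wide signal range as a block, Psme3 was called lower (-0.57, adjusted p = 0.0409 by limma). With the brightest probe set of each gene, 32 of 39 genes lay below 0 in mdx minus control, where 51.7% of all 8852 tested genes did. Their median log2 difference was -0.16, against -0.01 over all genes, and values ran from -0.69 to 0.22. The member genes were brighter than most, with a median signal of 2329 against 433 over all tested genes. Here and below, the shares of all genes are thus no background of like brightness, and the part of brightness was not tested. Differences are of log2(signal + 32), which understates the change of dim probe sets, and were tested with limma, with Benjamini-Hochberg adjustment over all 14932 tested probe sets. Of the 62 tested member probe sets, 2 had an adjusted p below 0.05 by limma, where the background was 2.3% of all tested probe sets. Both were higher in mdx and dim (Psmd4 and Psmd11), and both passed the filter only through the mdx arrays of 8 weeks. The filter thus favoured calls in that direction. An unadjusted p below 0.05 was reached by 11 (17.7%, against 17.8% of all), and 9 of these were lower in mdx (background 8.77%). The 3 mdx arrays lay below all 3 control arrays in 11 of 62 probe sets (background 10.1%) and above them in 3 (background 9.51%). These 3 are the called sets of Psmd4 and Psmd11 and a dim set of Psmb1, which also passed the filter only through the mdx arrays.

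At 10.5 months most of the same family read slightly higher in mdx hearts, and no member probe set was called. Of 39 genes, 28 lay above 0 (background 46.1%), with a median of 0.14 against -0.02 over all genes and values from -0.24 to 0.50. The adjusted p was below 0.05 for 0 of 62 member probe sets by limma (background 0.0469%), and the unadjusted p was below 0.05 for 4 (6.45%, against 7.37% of all). Groups were apart with mdx higher in 10 of 62 (background 7.51%) and with mdx lower in 2 (background 10.6%). The comparisons at the ages share no array. In them, 23 of 39 genes were below 0 at 8 weeks and above 0 at 10.5 months (59.0%), where 22.6% of all genes were, and 2 (Psmd10 and Psme4) were the other way round, where 24.8% were.

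**Figure D1:**
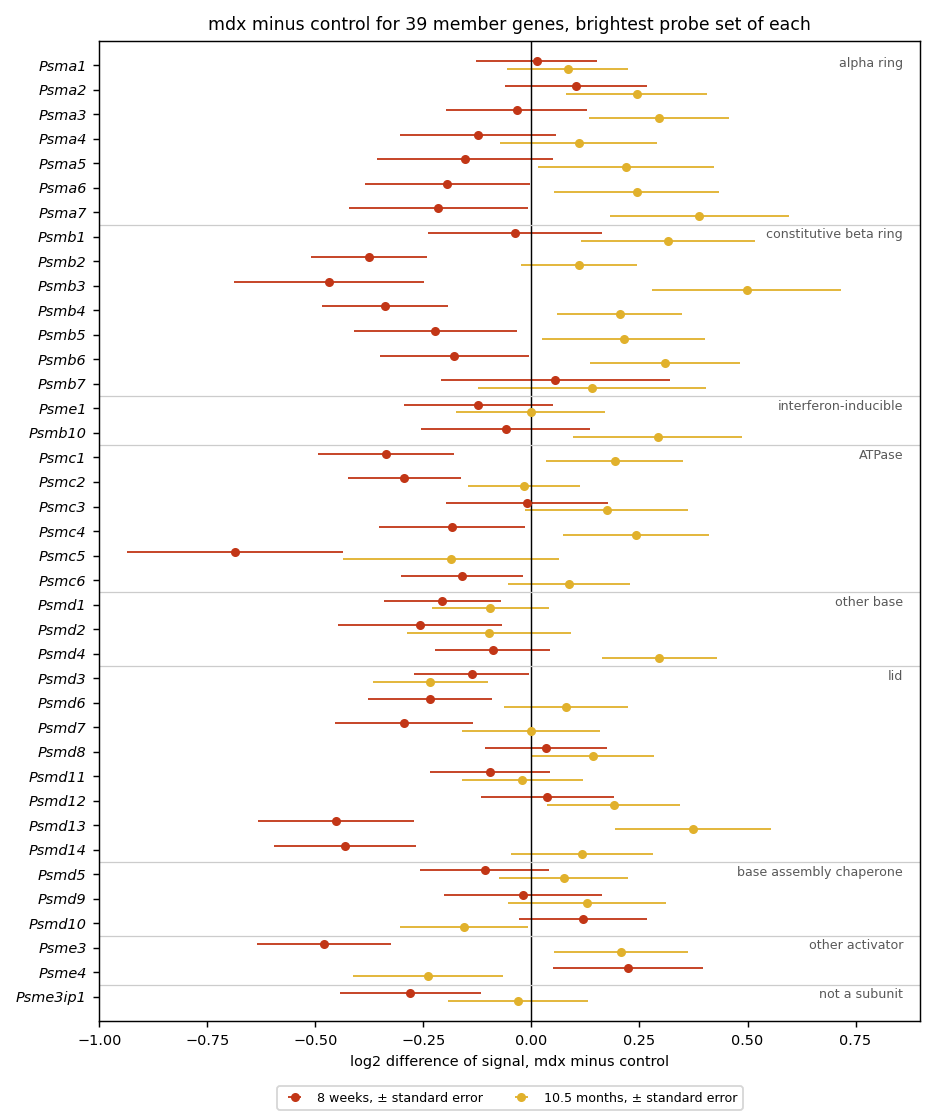
Log2 difference of signal, mdx minus control, for the brightest probe set of each of 39 member genes, grouped by role. Points are fitted differences at 8 weeks (red) and 10.5 months (yellow) and lines are ± 1 standard error; most red points lie left of 0 and most yellow points right of it.

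The difference of the mdx effects, 10.5 months minus 8 weeks, was above 0 in 36 of 39 genes (background 48.1%), with a median of 0.29. It uses the same arrays as both comparisons. By limma 0 of 62 member probe sets had an adjusted p below 0.05 for it (background 0.154%), and 11 had an unadjusted p below 0.05 (17.7%, against 12.1% of all).

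The 39 genes were also read on each array by their level. The median deviation of the genes from their own mean over 12 arrays was 0.01, 0.11 and 0.03 log2 units on control replicates 1, 2 and 3 at 8 weeks, and -0.13, -0.17 and -0.15 on the mdx replicates. At 10.5 months it was -0.07, 0.00 and -0.03 on the control and 0.01, 0.12 and 0.23 on the mdx arrays. The 3 mdx arrays of 8 weeks were the lowest of all 12, and the groups did not overlap at either age. At 10.5 months they were apart only narrowly, with the highest control array at 0.00 and the lowest mdx array at 0.01. The spread between replicates was 0.06 (SD, pooled over the groups), and the mdx arrays of 10.5 months ran from 0.01 to 0.23. Of the mdx arrays at 8 weeks, replicate 3 has no wide signal range and read -0.15. The highest array, mdx replicate 3 at 10.5 months, has one. Without the 4 wide arrays, which leaves 1 mdx array at 8 weeks, the medians were -0.15 at 8 weeks and 0.11 at 10.5 months.

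**Figure D2:**
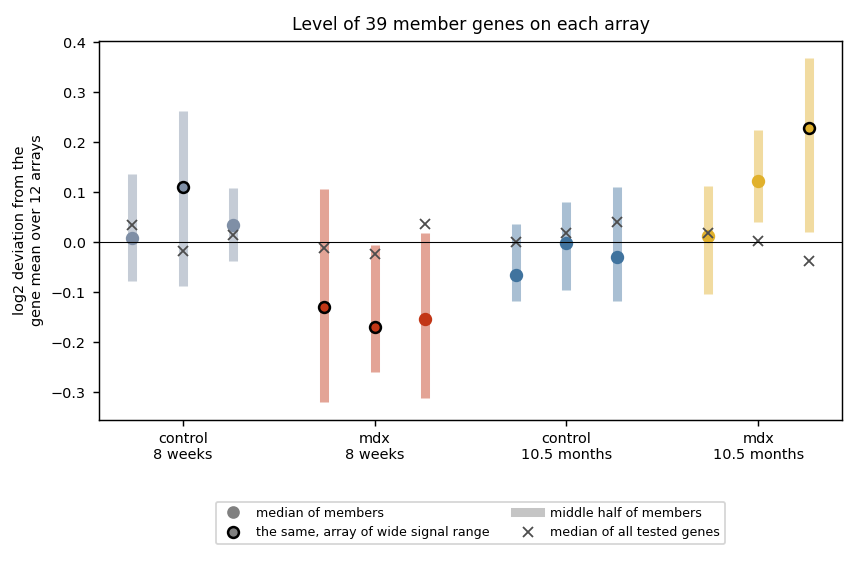
Level of the 39 member genes on each of the 12 arrays, as the log2 deviation from each gene's mean over the arrays. Dots are medians over genes, bars run between the quartiles, crosses are the median of all tested genes and a black outline marks the 4 arrays of wide signal range; the mdx arrays of 8 weeks lie lowest, between -0.17 and -0.13.

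Within groups the member genes did not rise and fall together from array to array. The median correlation of their deviations from the group means was 0.05 over 741 pairs of genes and 12 arrays, and 0.02 over all pairs of tested genes. These values share arrays and scaling.

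The alpha ring had 7 tested genes. Their median difference was -0.12 at 8 weeks, with 5 of 7 below 0, and 0.24 at 10.5 months, with all 7 above 0. None had a call in mdx against control at either age. Psma7, an alpha subunit, had the smallest p of the ring at both ages. Its brightest probe set read 1530, 1330 and 1561 in control and 1052, 1223 and 1557 in mdx hearts at 8 weeks. The values at 10.5 months were 1452, 1520 and 1473 in control and 1586, 1679 and 2773 in mdx hearts. The groups overlapped at 8 weeks (log2 difference -0.22 ± 0.21 SE) and were apart at 10.5 months (0.39 ± 0.21, adjusted p = 0.705 by limma), where the highest value belongs to the array of wide range. Without the wide arrays the 8-week difference of Psma7 was 0.01.

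The constitutive beta ring included Psmb3, whose brightest probe set had the largest difference of the mdx effects between the ages among the 39 genes (0.97 ± 0.31, adjusted p = 0.234 by limma), ahead of Psmd13 of the lid (0.83 ± 0.26). Its 7 genes had a median of -0.22 at 8 weeks, with 6 of 7 below 0, and of 0.21 at 10.5 months, with all 7 above 0. Psmb3, a beta subunit without a cutting site, was measured by 2 probe sets. The brighter one read 2390, 2675 and 2435 in control and 1630, 1982 and 1792 in mdx hearts at 8 weeks. It read 2081, 2164 and 2104 in control and 2208, 2638 and 4640 in mdx hearts at 10.5 months. All mdx arrays thus lay below the controls at 8 weeks and above them at 10.5 months, and 1 array stood far above the rest. The differences were -0.47 ± 0.22 (adjusted p = 0.285) and 0.50 ± 0.22 (adjusted p = 0.666) by limma, and the latter was 0.19 without mdx replicate 3. The second probe set of Psmb3 read 1162, 1372 and 1213 in control and 817, 843 and 1154 in mdx hearts at 8 weeks. Its values at 10.5 months were 1187, 1281 and 1221 in control and 1415, 1763 and 2722 in mdx hearts. It showed the same order of groups, with differences of -0.41 ± 0.21 and 0.61 ± 0.21. Without the wide arrays the 8-week difference of this probe set was -0.04.

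Such an order, all mdx arrays below the controls at 8 weeks and above them at 10.5 months, was found in 4 of 62 member probe sets (6.45%), and in 0.663% of all tested probe sets. The 4 were both sets of Psmb3 and the brighter sets of Psmd13 and Psme3, whose other tested sets did not show it. The fitted difference between the ages was not called for any of the 4, with adjusted p from 0.199 to 0.234.

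Psmb2, another structural beta subunit, was nearest to a call in the ring at 8 weeks. It read 2431, 2612 and 2303 in control and 1831, 1994 and 1812 in mdx hearts. Every mdx array was below every control array, by -0.38 ± 0.13 (adjusted p = 0.166 by limma). The values at 10.5 months were 2506, 2578 and 2309 in control and 2562, 2946 and 2492 in mdx hearts, which overlap.

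The 3 cutting subunits had no call in mdx against control at either age. The difference of their mdx effects was 0.44 ± 0.27 for Psmb5, 0.49 ± 0.24 for Psmb6 and 0.08 ± 0.37 for Psmb7, where the member median was 0.29. Without the wide arrays that of Psmb5 was 0.16. Psmb5, the chymotrypsin-like subunit, read 3508, 5051 and 3550 in control and 2780, 4128 and 3439 in mdx hearts at 8 weeks, and 3855, 4273 and 3521 against 4238, 4224 and 5067 at 10.5 months. Psmb6, the caspase-like subunit, read 2926, 3551 and 2975 against 3372, 2517 and 2504 at 8 weeks, and 2620, 2510 and 2226 against 2629, 2910 and 3670 at 10.5 months. The groups overlapped except for Psmb6 at 10.5 months, where mdx was higher by 0.31 ± 0.17 (adjusted p = 0.722 by limma). Psmb7, the trypsin-like subunit, read 10359, 18689 and 11541 in control and 17962, 16100 and 8676 in mdx hearts at 8 weeks. Its 3 high values are the 3 arrays of wide range at that age, and the difference was 0.06 ± 0.26, or -0.33 without the wide arrays. At 10.5 months Psmb7 read 10352, 10750 and 11318 in control and 10721, 11755 and 13385 in mdx hearts.

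The inducible members, Psmb10 of the beta ring and Psme1 of the cap that interferon induces, had no call at either age. Psmb10 read 1439, 1294 and 1210 in control and 1156, 1182 and 1451 in mdx hearts at 8 weeks, and 680, 896 and 1093 against 881, 1071 and 1323 at 10.5 months. Psme1 read 3689, 4065 and 3290 against 3715, 2574 and 3989 at 8 weeks, and 3145, 3505 and 3076 against 3135, 3091 and 3487 at 10.5 months. The groups overlapped in all 4 cases. The log2 differences were -0.06 ± 0.20 and 0.29 ± 0.20 for Psmb10, and -0.12 ± 0.17 and 0.00 ± 0.17 for Psme1.

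Of 8 interferon response genes tested, 1 was called at 8 weeks, the interferon-induced GTPase Igtp. It read 2234, 2034 and 1947 in control and 4588, 4270 and 6035 in mdx hearts (1.23 ± 0.24, adjusted p = 0.0263 by limma). The summed interferon list, which holds Psmb8 and Psmb9, ran from 6386 to 7580 in control and from 8646 to 15373 in mdx hearts at 8 weeks, and from 4216 to 7179 and 4066 to 5233 at 10.5 months. The inducible cutting subunits Psmb8 and Psmb9, which are not among the members, differed by -0.28 ± 0.26 (adjusted p = 0.614) and 0.04 ± 0.25 (adjusted p = 0.952).

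The 6 ATPases of the base were all below 0 at 8 weeks, with a median of -0.24, and 4 of 6 were above 0 at 10.5 months, with a median of 0.13. Psmc5 had the lowest value of any member gene at 8 weeks. It read 2519, 2066 and 1769 in control and 857, 1361 and 1839 in mdx hearts, a difference of -0.69 ± 0.25 (adjusted p = 0.175 by limma). The low values are mdx replicates 1 and 2, both of wide range, while replicate 3 lay among the controls, and the difference was -0.20 without the wide arrays. At 10.5 months Psmc5 read 1772, 1800 and 2263 in control and 1347, 1796 and 2010 in mdx hearts. Psmc4 had the smallest p of the ATPases at that age and read 822, 690 and 812 in control and 966, 946 and 852 in mdx hearts (0.24 ± 0.17, adjusted p = 0.787), groups that did not overlap. These are of its brightest probe set, which differed by -0.18 at 8 weeks. Its other tested probe set had the opposite sign both times, 0.20 at 8 weeks and -0.35 ± 0.42 at 10.5 months, where its groups overlapped.

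Psmd4, the base subunit that binds ubiquitin chains, carried the larger of both calls at 8 weeks, on its dimmest probe set. That set read 74.4, 96.7 and 13.6 in control and 236, 255 and 450 in mdx hearts at 8 weeks. The values at 10.5 months were 24.4, 22.8 and 18.6 in control and 13.9, 14.6 and 29.3 in mdx hearts. The mdx arrays of 8 weeks stood above all the other 9, and the difference at 8 weeks was 1.96 ± 0.33 (adjusted p = 0.0138 by limma, higher in 3 of 3 mdx arrays). Its mean over the other 9 arrays was 34.3, so it passed the filter of 100 only through the group in which it was high. The call was lost when only the groups compared were fitted (adjusted p = 0.115).

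The brightest probe set of Psmd4 did not move with the dim one. It read 2173, 2359 and 2306 in control and 2402, 2027 and 2011 in mdx hearts at 8 weeks, which overlap (-0.09 ± 0.13). Its older arrays read 2111, 2269 and 2147 in control and 2648, 2520 and 2871 in mdx hearts, all mdx arrays higher (0.30 ± 0.13, adjusted p = 0.666). The remaining probe set differed by 0.28 ± 0.17 and 0.02 ± 0.17. The other base subunits, the scaffold proteins Psmd1 and Psmd2, differed by -0.21 ± 0.14 and -0.26 ± 0.19 at 8 weeks and by -0.10 ± 0.14 and -0.10 ± 0.19 at 10.5 months. Psmd1 read 2199, 2150 and 2241 in control and 1793, 2108 and 1815 in mdx hearts at 8 weeks, which do not overlap.

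The 8 lid genes had a median of -0.19 at 8 weeks, with 6 of 8 below 0, and of 0.10 at 10.5 months, with 5 of 8 above 0. Psmd11, a scaffold subunit of the lid, carried the other call, again on its dimmest probe set. It read 80.1, 137 and 105 in control and 257, 233 and 237 in mdx hearts at 8 weeks. The values at 10.5 months were 66.3, 101 and 121 in control and 88.4, 58.5 and 55.2 in mdx hearts. The mdx arrays of 8 weeks were again above all others, by 1.00 ± 0.20 over their controls (adjusted p = 0.0292 by limma). Its mean over the other 9 arrays was 90.2, also below the filter. The call was lost when any of 5 of the 6 arrays at 8 weeks was left out, all but control replicate 2, with differences from 0.85 to 1.02 and adjusted p from 0.0509 to 0.0969. It was also lost with only the groups compared (adjusted p = 0.107).

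Of the other 4 tested probe sets of Psmd11, the brightest read 4007, 4625 and 3618 in control and 3709, 3640 and 4054 in mdx hearts at 8 weeks, and 5233, 4826 and 4689 against 4743, 5159 and 4634 at 10.5 months. These overlap at both ages, with differences of -0.10 ± 0.14 and -0.02 ± 0.14. The lowest of the 5 probe sets of the gene at 8 weeks differed by -0.22 ± 0.20.

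**Figure D3:**
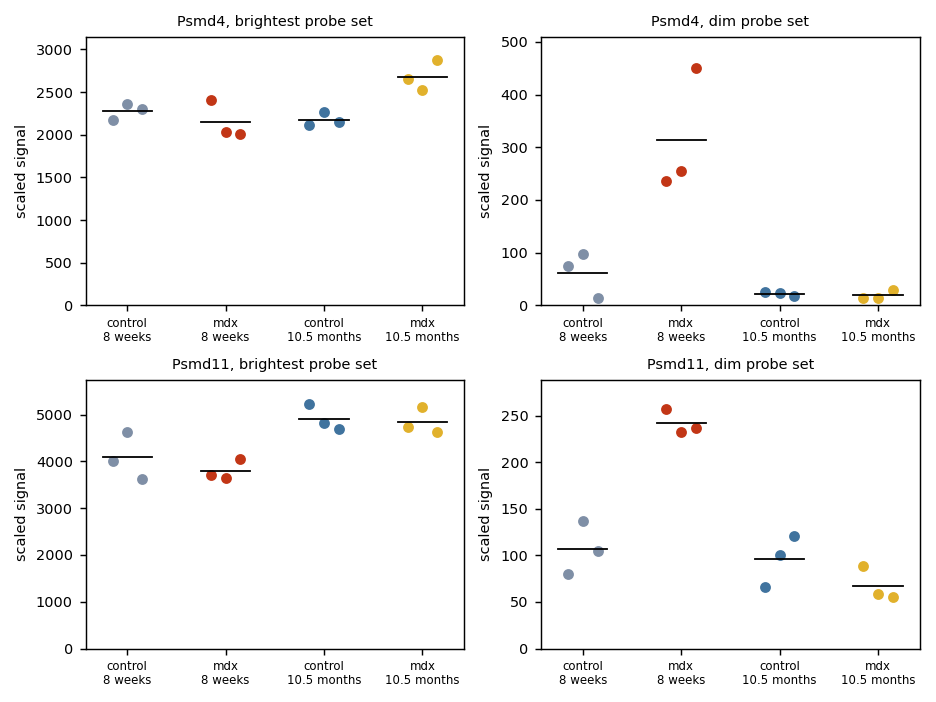
Scaled signal of the brightest and the dimmest tested probe set of Psmd4 and Psmd11, 1 point per array and 3 per group, with the group mean as a line. The mdx arrays of 8 weeks stand above the rest on the dim probe sets (236 to 450 and 233 to 257), while on the bright ones they overlap the controls of that age.

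Psmd13 and Psmd14 had the lowest differences of the lid at 8 weeks. Psmd13, a structural lid subunit, read 871, 941 and 870 in control and 595, 791 and 567 in mdx hearts at 8 weeks, and 667, 563 and 642 against 681, 754 and 1056 at 10.5 months. The groups were apart both times, in opposite order (-0.45 ± 0.18, adjusted p = 0.210, and 0.37 ± 0.18, adjusted p = 0.677, by limma). The second probe set of Psmd13 was also lower at 8 weeks (-0.37) but overlapped at 10.5 months (0.11 ± 0.14). Psmd14, the enzyme that cuts the ubiquitin chain from the substrate, read 2167, 1584 and 1823 in control and 1148, 1338 and 1631 in mdx hearts at 8 weeks, and 1955, 2066 and 1857 against 1951, 2197 and 2241 at 10.5 months. The groups of Psmd14 overlapped at both ages (-0.43 ± 0.16, adjusted p = 0.191, and 0.12 ± 0.16).

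The chaperones that assemble the base, Psmd5, Psmd9 and Psmd10, were close to 0, with medians of -0.02 and 0.07. Psmd10 read 136, 130 and 177 in control and 151, 165 and 170 in mdx hearts at 8 weeks, and 191, 221 and 248 against 205, 196 and 179 at 10.5 months, overlapping at both ages. Psme3ip1, which is no subunit, read 709, 512 and 636 in control and 475, 457 and 574 in mdx hearts at 8 weeks, and 630, 531 and 704 against 602, 631 and 579 at 10.5 months, overlapping at both ages (-0.28 ± 0.16 and -0.03 ± 0.16).

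The activators that cap the barrel without ATPases differed from each other. Psme3, the nuclear activator, read 617, 762 and 674 in control and 494, 549 and 407 in mdx hearts at 8 weeks, and 550, 600 and 603 against 609, 657 and 783 at 10.5 months. All mdx arrays were below the controls and then above them (-0.48 ± 0.16, adjusted p = 0.131, and 0.21 ± 0.16, adjusted p = 0.807, by limma). With the wide signal range as a block Psme3 was called lower at 8 weeks (-0.57, adjusted p = 0.0409) and higher with age in mdx hearts (0.57, adjusted p = 0.0166), where without the block the value was 0.47 ± 0.16 (adjusted p = 0.0640). These calls are of the brightest probe set of Psme3. Its second probe set was lower in mdx at both ages (-0.48 ± 0.20 and -0.40 ± 0.20), with groups overlapping at 8 weeks only. With age in mdx hearts the second set went the other way (-0.23 ± 0.20), with groups overlapping. Psme4, an activator known for the breakdown of acetylated histones, read 4412, 5480 and 4481 in control and 6164, 5796 and 4840 in mdx hearts at 8 weeks on its brightest probe set. The same probe set read 4033, 4595 and 4136 in control and 4416, 3585 and 2928 in mdx hearts at 10.5 months. The signs of Psme4 were opposite to those of most members (0.22 ± 0.17 and -0.24 ± 0.17), and the groups overlapped both times.

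The probe sets of 1 gene often disagreed. Of 16 genes with at least 2 tested probe sets, 10 had probe sets of opposite sign at 8 weeks and 8 at 10.5 months. The 23 tested member probe sets that were not the brightest of their gene had a median of 0.10 at 8 weeks, with 11 below 0, and of -0.07 at 10.5 months, with 10 above 0. The shifts down and then up were thus those of the brightest probe sets. Apart from Psmd4 and Psmd11, the largest difference on a dim set at 8 weeks was that of Psmb1, which read 139, 125 and 14.3 in control and 165, 152 and 225 in mdx hearts (0.97 ± 0.55, adjusted p = 0.388 by limma). Its mean over the other 9 arrays was also below the filter.

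**Figure D4:**
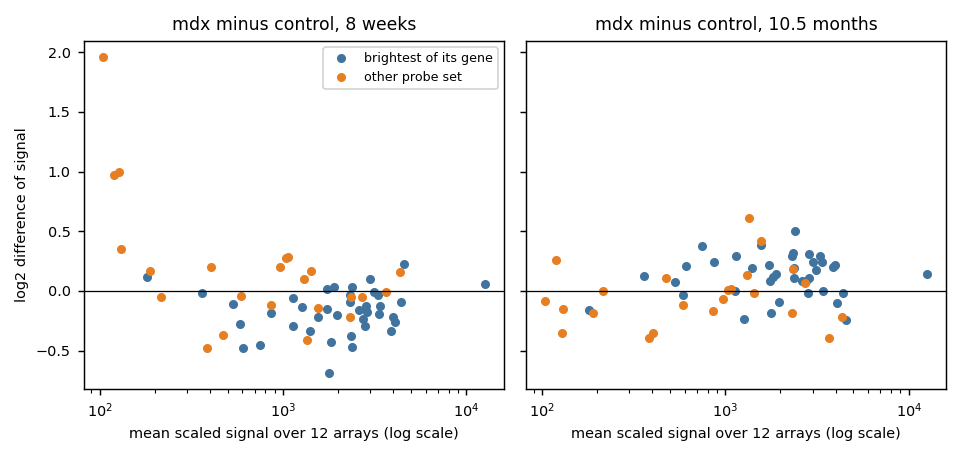
Log2 difference of signal, mdx minus control, against the mean scaled signal over 12 arrays (log axis) for the 62 tested member probe sets, at 8 weeks and at 10.5 months. Blue points are the brightest probe set of each gene and orange points the others; the highest points at 8 weeks, 1.96, 1.00 and 0.97, are dim probe sets.

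From 8 weeks to 10.5 months, Psmb2, Psmb3 and Psmd14 rose in mdx hearts, and 2 of 3 probe sets of Psme4 fell, as did dim probe sets of Psmd4, Psmd11 and Psma6. In mdx hearts 9 of 62 were called (background 11.4%), 4 higher (background 5.45%) and 5 lower (background 5.97%), shares near those of all probe sets. Among the 5, the sets of Psmd4 and Psmd11 passed the filter only through the mdx arrays of 8 weeks, which favours a lower later value. They count also among the 6 probe sets with lower older arrays given below. In control hearts 0 were called by limma (background 0.147%) and 6 had an unadjusted p below 0.05 (9.68%, against 12.2% of all). Whether the age effects differ is the difference of the mdx effects given above, with 0 calls. The groups were apart with the older arrays higher in 18 of 62 (background 14.7%) and lower in 6 (background 15.5%) in mdx hearts, and in 4 (background 12.2%) and 12 (background 10.5%) in control hearts. With the brightest probe set of each gene, 32 of 39 were above 0 in mdx hearts (background 49.2%), with a median of 0.26, and 23 of 39 were below 0 in control hearts (background 49.1%), with a median of -0.07. The age comparison in mdx hearts shares its arrays with both comparisons of mdx against control, and the values above are of the same arrays. Cell markers were called in it too, Ryr2 of ventricular muscle lower (-0.92, adjusted p = 0.0178) and Lum of fibroblasts higher (1.17, adjusted p = 0.00432), by limma. Of the 8 interferon response genes 3 were called lower (Igtp, Irgm1 and Irf1). All 9 ventricular markers were below 0 with age in mdx and in control hearts (medians -0.32 and -0.29). The part of these was not tested.

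The probe sets that rose with age in mdx hearts were both of Psmb3 (0.73 ± 0.22, adjusted p = 0.0475, for the brighter, and 1.01 ± 0.21, adjusted p = 0.0129), with those of Psmb2 (0.50 ± 0.13, adjusted p = 0.0322) and Psmd14 (0.63 ± 0.16, adjusted p = 0.0282), all by limma. In each, all 3 older mdx arrays lay above all 3 younger ones. In control hearts the same probe sets differed with age by -0.24 ± 0.22 and -0.02 ± 0.21 (Psmb3), 0.01 ± 0.13 (Psmb2) and 0.09 ± 0.16 (Psmd14). The wide arrays weigh on these values: without them the brighter Psmb3 set was at 0.42 (adjusted p = 0.163), the other at 0.44 (adjusted p = 0.170), Psmd14 at 0.34 (adjusted p = 0.273) and Psmb2 at 0.59 (adjusted p = 0.0806).

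The probe sets that fell with age in mdx hearts were the dim ones of Psmd4 (-2.71 ± 0.33, adjusted p = 0.000842), Psmd11 (-1.48 ± 0.20, adjusted p = 0.00173) and Psma6 (-1.18 ± 0.30, adjusted p = 0.0247), and a pair of Psme4 (-0.63 ± 0.17, adjusted p = 0.0356, and -0.60 ± 0.16, adjusted p = 0.0272), all by limma. The sets of Psmd4 and Psmd11 passed the filter only through the mdx arrays of 8 weeks, from which this comparison starts, so the filter favoured lower later values. The dim set of Psma6, an alpha subunit, read 394, 256 and 195 in mdx hearts at 8 weeks and 139, 117 and 62.6 at 10.5 months. In control hearts it read 216, 272 and 231 and then 171, 145 and 67.8, a difference of -0.82 ± 0.30 (adjusted p = 0.289), and the groups did not overlap there either. The brightest set of Psma6 went the other way in mdx hearts (0.23 ± 0.19). The second set of Psme4 read 5204, 5668 and 4838 and then 4101, 2855 and 3434 in mdx hearts, and 4354, 4802 and 4930 and then 3792, 4329 and 3893 in control hearts. Older arrays were lower than younger ones in both. The remaining set of Psme4 did not pass in mdx hearts (-0.09 ± 0.16, adjusted p = 0.755), and in control hearts all older arrays were higher (0.30 ± 0.16, adjusted p = 0.471). Without the wide arrays the values were -0.51 (adjusted p = 0.419) for Psma6, and -0.28 (adjusted p = 0.369) and -0.50 (adjusted p = 0.220) for Psme4, while Psmd4 and Psmd11 stayed called.

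Single arrays decided several of these calls. With each of 12 arrays left out in turn, the call of the second Psmb3 set was kept in all 12 cases. Those of Psmd4 and Psmd11 were too, but these sets were chosen by the filter through the group in which they were high. The brighter Psmb3 set lost its call in 11 of 12, all but mdx replicate 1 at 10.5 months, with adjusted p from 0.0516 to 0.120 and the lowest value, 0.42, without mdx replicate 3 at 10.5 months. Psmb2 lost it in 7 (mdx replicates 1 and 3 at 8 weeks, control replicates 1 and 2 at 10.5 months and all mdx replicates at 10.5 months), with values from 0.42 to 0.54 and adjusted p from 0.0502 to 0.123. Psmd14 lost it in 4 (mdx replicates 1 and 2 at 8 weeks and 2 and 3 at 10.5 months), with values from 0.52 to 0.62. Psma6 lost it in 3 (mdx replicate 1 at 8 weeks and replicates 2 and 3 at 10.5 months), with values from -1.25 to -0.92. The brighter Psme4 set lost it in 6 (those named for Psmd14 and control replicates 1 and 2 at 10.5 months) and the other in 4 (those named for Psmd14), with values from -0.63 to -0.48 and from -0.61 to -0.47.

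**Figure D5:**
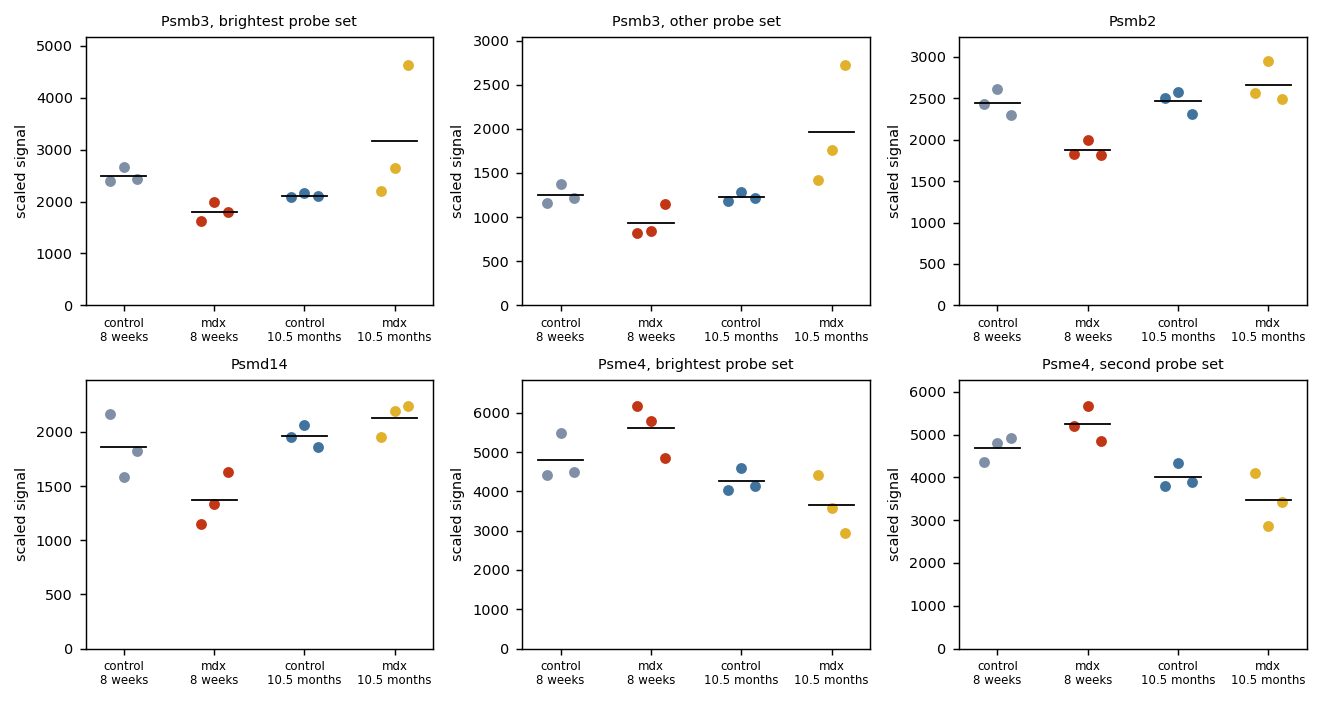
Scaled signal of 6 member probe sets called between the ages in mdx hearts, 1 point per array and 3 per group, with the group mean as a line. The group means of Psmb3, Psmb2 and Psmd14 are lowest in the mdx hearts of 8 weeks, and for Psmb3 the highest point, 4640 and 2722, is mdx replicate 3 at 10.5 months.

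Genes that serve the proteasome without being members gave few calls. Of the 5 chaperones that assemble the core (Pomp and Psmg1 to Psmg4), 0 were called at either age. Their medians were -0.22 at 8 weeks, with 4 of 5 below 0, and 0.07 at 10.5 months, with 4 of 5 above 0. Pomp, the maturation factor that is itself the first substrate of the new core, read 2535, 2815 and 2627 in control and 2344, 2415 and 2093 in mdx hearts at 8 weeks, all mdx arrays lower (-0.22 ± 0.14, adjusted p = 0.427 by limma).

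Of 7 other proteasome-bound proteins tested, 1 was called at 8 weeks. Usp14, a ubiquitin protease of the base, read 755, 1023 and 726 in control and 1947, 1640 and 1201 in mdx hearts. It was higher in mdx by 0.90 ± 0.19 (adjusted p = 0.0340 by limma). The values 1023, 1947 and 1640 are of arrays of wide range. Mdx replicate 3, without a wide range, read 1201, above all controls. At 10.5 months it differed by -0.17 ± 0.19. The median of these genes was -0.20 at 8 weeks, with 5 of 7 below 0.

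Of 6 transcription regulators of the proteasome genes, 0 were called at either age, and their medians were 0.01 and -0.04. Nfe2l1, the regulator that raises proteasome genes when the proteasome is blocked, differed by 0.12 ± 0.20 and -0.10 ± 0.20. Of 7 genes that shuttle or extract ubiquitin-marked proteins, 0 were called for mdx against control, with medians of 0.04 and -0.18. Rad23b, a shuttle that carries marked proteins to the proteasome, fell with age in mdx hearts, from 1922, 2272 and 2426 to 1524, 1381 and 1247 (-0.66 ± 0.14, adjusted p = 0.0147). In control hearts Rad23b read 2017, 2357 and 2035 and then 1602, 1587 and 1695 (-0.38 ± 0.14, adjusted p = 0.319 by limma). All older arrays were lower there too. Of 4 muscle ubiquitin ligases tested, 0 were called, and the nearest, Fbxo32 (atrogin-1), differed by -0.39 ± 0.18 (adjusted p = 0.273) and -0.36 ± 0.18 (adjusted p = 0.686). The ubiquitin genes were paired with no probe set of 1 gene and were not analysed here.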

How the data were processed

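Signals of 12 arrays were analysed. The deposited values are intensity on a linear scale, 1 per probe set and array, which the authors had scaled to a common trimmed mean. The labels name Affymetrix's standard protocol, and the program that summarised the probes is not given in the sources used here. Groups and replicate numbers came from the sample titles. Arrays were brought to a trimmed mean of 500 (2% left off at each end), 32 was added and log2 taken. Tests covered the 14932 probe sets whose scaled signal averaged at least 100 (Affymetrix control probe sets left out). In R 4.3.3, limma 3.58.1 (lmFit, eBayes) was fitted to all 12 arrays with 1 mean for each group, with Benjamini-Hochberg adjustment over all tested probe sets and a call at an adjusted p below 0.05. The fit was tested on simulated data. Genes were read from their brightest tested probe set. No depth exists for arrays, and 3 arrays per group limit the precision.

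Values by array were given for every called member probe set, for the smallest p in each role group at each age, for the cutting and inducible subunits, for the brightest member and for genes whose probe sets disagreed most. Further genes were named after their values were seen. The members, lists and rules were chosen with earlier results of these data known. The alternatives were other offsets, filters and scalings, a replicate block, signal range as a block, a trended prior, only the groups compared, each array left out, and averaged probe sets. Leaving out the arrays of wide signal range, leaving out the older control arrays high in atrial markers and the counts of genes by sign were chosen after seeing the data.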

Additional observations from a re-analysis of the deposited data

Results flagged for a closer look

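In 4 member probe sets all 3 mdx arrays lay below all controls at 8 weeks and above all controls at 10.5 months, and the fitted difference between the mdx effects was not called for any of them (limma, adjusted p over all tested probe sets). For Psmb3 this difference, 10.5 months minus 8 weeks, was 0.97 ± 0.31 (adjusted p = 0.234) on the brighter probe set. On its other probe set it was 1.03 ± 0.30 (adjusted p = 0.199). For Psmd13 it was 0.83 ± 0.26 (adjusted p = 0.217) on the brighter probe set and 0.48 ± 0.20 (adjusted p = 0.362) on the other, whose groups overlapped at 10.5 months. For Psme3 it was 0.69 ± 0.22 (adjusted p = 0.234) on the brighter probe set and 0.08 ± 0.29 on the other, which was lower in mdx at both ages. Without the 4 arrays of wide signal range it was 0.61 on the brighter and 0.39 on the other Psmb3 probe set.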

How the results depend on the processing

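The medians over the member genes kept their sign under every alternative run, from -0.23 to -0.10 at 8 weeks, from 0.07 to 0.22 at 10.5 months, from 0.16 to 0.41 for the difference of the mdx effects and from 0.21 to 0.35 for age in mdx hearts. Median scaling gave -0.23 at 8 weeks, 0.41 for the difference and 0.35 for age in mdx hearts, and left 6 genes below 0 at 10.5 months and 4 for age in mdx hearts. It moved the median of all genes to -0.08, 0.09 and 0.08 in those 3 comparisons. Averaging the probe sets of a gene gave 0.16 for the difference, with 8 genes below 0, and 12 below 0 for age in mdx hearts. Quantile normalization left 5 genes below 0 for the difference. Leaving out the older control arrays high in atrial markers, replicates 1 and 2, left 1 control array at 10.5 months. The median at that age was then 0.073. Without the wide arrays, which leaves 1 mdx array at 8 weeks that is assumed to vary like the others, 10 genes were below 0 for the difference, and 1 probe set was called in it (Psmd4, -3.01, adjusted p = 0.0487, the dim set that passed the filter only through the mdx arrays of 8 weeks), 1 at 8 weeks and 3 for age in mdx hearts. The 8-week calls numbered 0 with a filter of 200, which leaves out both probe sets, and 0 with only the groups compared. Age in mdx hearts then gave 2 calls. With each array left out in turn, the median ran from -0.18 to -0.12 at 8 weeks, 0.11 to 0.22 at 10.5 months and 0.26 to 0.33 for the difference, with 3 to 5 genes below 0 for the difference. Calls numbered 1 to 2 at 8 weeks and 3 to 10 for age in mdx hearts. The replicate block left 1 call at 8 weeks (Psmd4) and 8 for age in mdx hearts. Same-numbered arrays correlated in their deviations by -0.13 to 0.14 at 8 weeks and -0.09 to 0.02 at 10.5 months. Arrays of different number were not compared in this way, so these values cannot decide whether the numbers pair the arrays. Among the values at least as large as their standard error, signs turned without the wide arrays for Psmc4 (0.030) and Psma7 (0.010) at 8 weeks and for Psmc5 in the difference (-0.11) and with age in mdx hearts (-0.24). They turned for Psmb10 at 10.5 months without the controls high in atrial markers (-0.020), and for the dim Psmb1 set with age in mdx hearts without mdx replicate 2 at 10.5 months (0.031, the highest of a range from -1.14 with 1 array left out). Smaller values changed sign more often, 104 times over all alternatives; without the wide arrays these included Psme1 at 8 weeks (0.19) and in the difference (-0.25), Psmc4 (-0.10) and Psmb7 (0.37) with age in mdx hearts and the dim Psma6 set in the difference (0.23), and without the atrial-high controls the dim Psma6 set at 10.5 months (0.43). With signal range as a block, the brightest probe set of Psme3 was called at 8 weeks (-0.57) and with age in mdx hearts (0.57), the latter also with a trended prior (adjusted p = 0.0433). Psma7 was called with age in mdx hearts with a trended prior (0.61), median scaling (0.71) and without mdx replicate 3 at 8 weeks (0.76). The cause was not tested.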
